A study of Homo sapiens with 2 samples.

Results

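The RNA exosome subunits EXOSC1 to EXOSC10 were examined in P493-6 cells, a human B cell line whose c-Myc transgene is repressed by tetracycline. Each subunit was found by its gene symbol in both libraries, and the transcript with the highest mean level stood for it, so that 10 of the 19096 genes listed are described. The high c-Myc group was 1 library of cells at 24 h of release from repression, and the low c-Myc group was 1 library of cells at 0 h of release. Both groups were grown in RPMI medium with serum, both carry the same repressible transgene, and the labels class the line as B-cell lymphoma. Polyadenylated RNA was sequenced, after synthetic RNAs had been added to each sample by cell number. A single cell line was used, with 1 library per group, so no difference has a replicate check and no test between the groups was made. Time since release and c-Myc level cannot be told apart in this design. In bulk RNA of this kind, fewer cells expressing a gene and less RNA per cell cannot be told apart either.

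The exosome is a barrel-shaped complex that trims and degrades RNA from its 3' end in the nucleus, the nucleolus and the cytoplasm. The related proteins EXOSC4 to EXOSC9 form a ring that in human cells cuts no RNA itself, and EXOSC1, EXOSC2 and EXOSC3 form a cap through which RNA enters. Cutting is left to attached nucleases, which are EXOSC10 in the nucleus and nucleolus and the DIS3 proteins. The complex finishes the ends of ribosomal RNA precursors and of small nucleolar RNAs, and it clears faulty messengers and short-lived nuclear transcripts. The transcription factor c-Myc binds E-box sequences near gene starts and is known for driving cell growth and ribosome production.

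The promoters of EXOSC5, EXOSC3 and EXOSC10 are shown because these genes had the highest ratio in the ring, the highest ratio in the cap and the lowest ratio of all subunits. They come from RefSeq on GRCh38.p14, since the deposited tables give no positions, and cover 250 bases before the gene start and the first 30 bases after it, on the strand of the gene. Capitals mark CACGTG, the canonical E-box, and CACGCG, a variant of it, which reads CGCGTG when it lies on the opposite strand.
EXOSC5 (chr19:41397330-41397609, minus strand): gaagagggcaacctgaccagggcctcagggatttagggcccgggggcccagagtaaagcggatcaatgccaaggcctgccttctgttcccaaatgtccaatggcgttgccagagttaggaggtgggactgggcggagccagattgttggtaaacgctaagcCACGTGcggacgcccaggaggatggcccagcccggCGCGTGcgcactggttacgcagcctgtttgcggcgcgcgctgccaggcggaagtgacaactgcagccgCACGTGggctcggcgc
EXOSC3 (chr9:37785063-37785342, minus strand): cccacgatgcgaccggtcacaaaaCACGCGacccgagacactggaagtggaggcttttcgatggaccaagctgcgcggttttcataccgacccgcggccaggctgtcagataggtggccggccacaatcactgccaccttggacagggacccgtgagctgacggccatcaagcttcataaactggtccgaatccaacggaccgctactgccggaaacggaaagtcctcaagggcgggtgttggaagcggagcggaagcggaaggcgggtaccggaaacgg
EXOSC10 (chr1:11099840-11100119, minus strand): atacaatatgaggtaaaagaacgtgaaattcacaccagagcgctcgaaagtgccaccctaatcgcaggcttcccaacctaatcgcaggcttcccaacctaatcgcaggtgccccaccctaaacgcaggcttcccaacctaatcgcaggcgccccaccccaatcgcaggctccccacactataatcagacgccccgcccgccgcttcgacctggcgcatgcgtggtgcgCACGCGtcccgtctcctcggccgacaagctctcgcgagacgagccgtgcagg

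Of the 10 subunits, 8 had a promoter entry, and EXOSC1 and EXOSC4 had none. Both strands of the whole window of 300 bases were searched for the 2 motifs, which did not overlap each other in any of the members' promoters. EXOSC5 was the only one of the 8 with CACGTG, at 2 places, starting 89 bases before the gene start and at base 15 of the gene. EXOSC5 also held CACGCG on the opposite strand, starting 54 bases before the start. The EXOSC10 promoter held 1 CACGCG, starting 22 bases before the start, and EXOSC3 held 1 in the promoter shown, starting 226 bases before that gene start, and none in its other listed promoter. The windows of both EXOSC3 promoters overlap, and the other one begins inside this same motif, so only the window edge leaves it out. Neither motif was in these windows of EXOSC2, EXOSC6, EXOSC7, EXOSC8 and EXOSC9. Among all 35116 promoters of the table, 7.26% held CACGTG, 0.664% held it at least 2 times, and 11.4% held CACGCG. Among the 7717 expressed genes (mean RPKM, a read level scaled for transcript length and library size, of at least 1) with a promoter, the shares were 10.7%, 1.26% and 18.8% in the same order.

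The libraries were deep. The steps between low RPKM values implied about 105250000 reads with c-Myc high and 103000000 with c-Myc low. By that measure the subunits rested on 358 to 18534 reads per library, so counting error was small beside most differences described here. All 7 B cell markers checked were present, at an RPKM of 39.8 to 5243 with c-Myc high and 68.5 to 11945 with c-Myc low. Of 15 markers of other cell types, 6 had a mean RPKM of at least 1 (CD3E, CD2, LYZ, CD68, PRF1 and COL1A1), and the 15 together summed to 33.4 with c-Myc high and 123 with c-Myc low. CD3D, HBB and ALAS2 were at 0 in both libraries, and the part of such cells in the subunit values was not tested. MYC itself stood at an RPKM of 2358 with c-Myc high and 836 with c-Myc low, which is 2.82-fold higher in RPKM. Its level with c-Myc low was still above that of 99.8% of expressed genes. Reads of the transgene and of the endogenous gene are not separated in these values.

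Of the 10 subunits, 7 stood 2-fold or more above their low c-Myc level with c-Myc high, none was 2-fold lower, and EXOSC1, EXOSC9 and EXOSC10 lay between. Ratios were taken of log2(RPKM + 0.5), and the added 0.5 shrinks the ratios of genes at low levels. Against that count, 24.9% of the 10272 expressed genes (mean RPKM of at least 1) were higher by the same rule and 9.74% were lower. The median log2 ratio was 1.53 over the subunits and 0.22 over all expressed genes, and relative to that shift the 7 subunits were still at least 2-fold higher. EXOSC8, at 1.41, was the lowest ratio beyond the 2-fold limit, and EXOSC9, at 0.67, the highest within it.

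**Figure D1:**
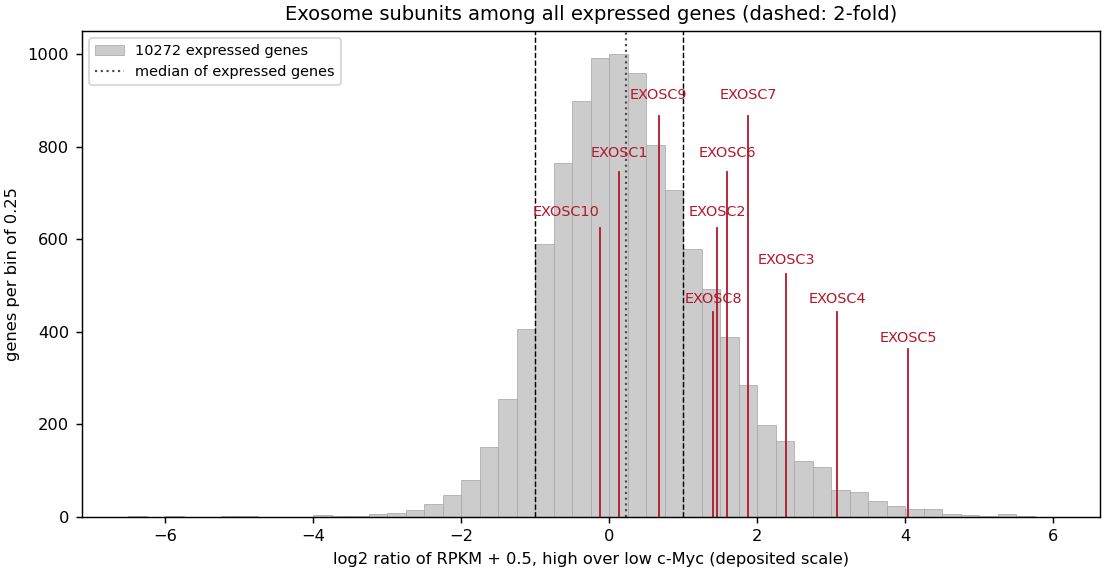
Log2 ratio of RPKM + 0.5, high over low c-Myc, on the horizontal axis against the number of genes per bin, for the 10272 expressed genes (grey), with the 10 subunits as red lines whose height carries no value. Dashed lines mark 2-fold and the dotted line the median of 0.22; the subunits run between -0.13 (EXOSC10) and 4.04 (EXOSC5).

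The cap proteins differed among themselves. EXOSC3, a cap protein with an RNA-binding S1 domain, stood at an RPKM of 59.3 with c-Myc high and 10.9 with c-Myc low. This is 5.45-fold higher, with a 95% counting interval of 5.07 to 5.87, and a log2 ratio of 2.39, above 95.1% of expressed genes. Both EXOSC3 transcripts listed gave the same picture, with log2 ratios of 2.39 and 2.37. EXOSC2, the cap protein known in yeast as Rrp4, stood at 17.2 with c-Myc high and 5.92 with c-Myc low, which is 2.90-fold higher (2.72 to 3.10). EXOSC1, the counterpart of yeast Csl4, stood at 11.7 with c-Myc high and 10.6 with c-Myc low. Its log2 ratio was 0.13, and it was -0.09 after centring on the median of all genes, -0.23 at equal RPKM sums and -0.25 after quantile normalization, so that EXOSC1 has no stable direction.

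The ring held both of the subunits with the highest ratios. EXOSC5, the counterpart of yeast Rrp46, stood at an RPKM of 158 with c-Myc high and 9.11 with c-Myc low. It was 17.3-fold higher, with a counting interval of 16.2 to 18.4 and a log2 ratio of 4.04, above 99.6% of expressed genes. EXOSC4, the counterpart of yeast Rrp41, stood at 53.0 with c-Myc high and 5.81 with c-Myc low. It was 9.11-fold higher (8.33 to 9.99), a log2 ratio of 3.08, above 98.1% of expressed genes. EXOSC7, the counterpart of yeast Rrp42, stood at 35.6 with c-Myc high and 9.31 with c-Myc low, which is 3.82-fold higher (3.57 to 4.10).

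The remaining ring subunits were nearer to the bulk of genes. EXOSC6, the counterpart of yeast Mtr3, stood at an RPKM of 8.44 with c-Myc high and 2.47 with c-Myc low, which is 3.42-fold higher (3.22 to 3.64). EXOSC8, the counterpart of yeast Rrp43, stood at 8.52 with c-Myc high and 2.90 with c-Myc low, which is 2.93-fold higher (2.60 to 3.32). These 2 had the lowest RPKM of the subunits in both libraries. EXOSC9, the counterpart of yeast Rrp45 and a target of autoantibodies in overlap of myositis and scleroderma, stood at 12.9 with c-Myc high and 7.90 with c-Myc low. That is 1.63-fold higher (1.52 to 1.75), short of the 2-fold limit, and the second EXOSC9 transcript had a log2 ratio of 0.65 against 0.67.

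The nucleases lay within 2-fold. EXOSC10, the nuclear nuclease that is Rrp6 in yeast, stood at an RPKM of 22.0 with c-Myc high and 24.1 with c-Myc low. Its log2 ratio was -0.13, and its 2 transcripts had -0.12 and -0.13. It stayed between -0.69 and -0.11 in each of the 11 other ways of handling the values. DIS3, the main nuclease of the complex in the nucleus, stood at 6.74 with c-Myc high and 6.85 with c-Myc low, a log2 ratio of -0.02. DIS3L, its cytoplasmic relative, stood at 8.36 with c-Myc high and 4.91 with c-Myc low, a log2 ratio of 0.71. Of all expressed genes, 6717 of 10272 likewise lay within 2-fold, and the ratio of DIS3L was above those of EXOSC9 and EXOSC1, so these 3 genes are not set apart from the barrel by this count.

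**Figure D2:**
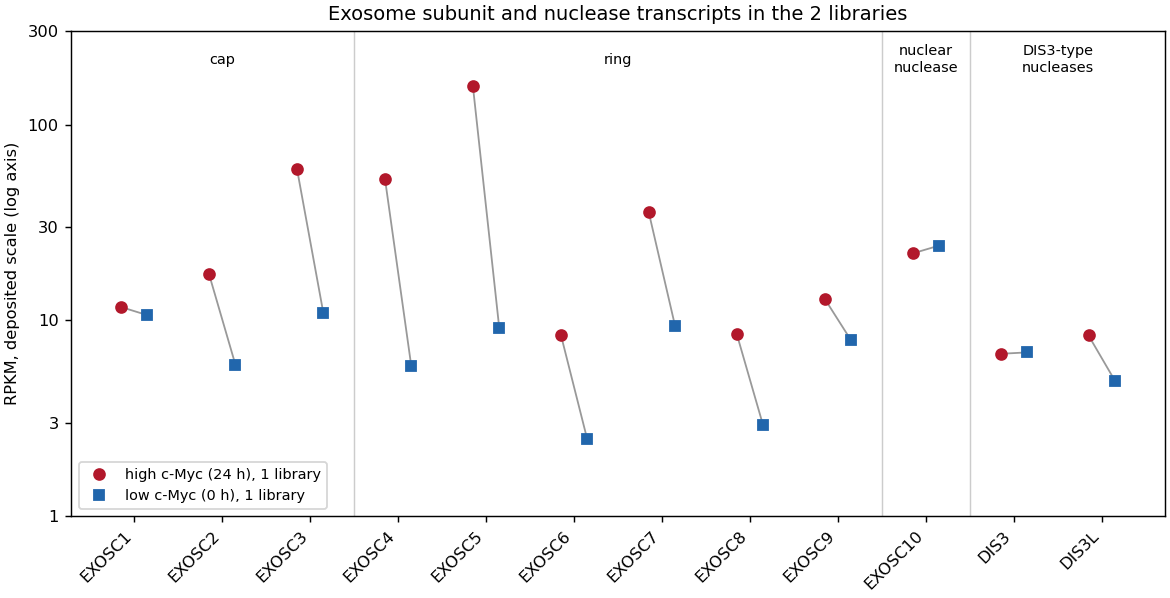
RPKM on a log axis for each exosome subunit and for DIS3 and DIS3L, with the high c-Myc library (red circles) left of the low c-Myc library (blue squares) and a grey line joining the 2 values of a gene. EXOSC5 has the steepest line, 158 against 9.11, and EXOSC1, EXOSC10 and DIS3 have nearly level ones.

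The order of the subunits by level differed between the libraries. RPKM is scaled for transcript length, and levels of different genes were set side by side on that basis only. The part of GC content, overlapping genes and the authors' own transcript lengths in the order and shares was not tested. In the high c-Myc library the order was EXOSC5, EXOSC3, EXOSC4, EXOSC7, EXOSC10, EXOSC2, EXOSC9, EXOSC1, EXOSC8 and EXOSC6. In the low c-Myc library it was EXOSC10, EXOSC3, EXOSC1, EXOSC7, EXOSC5, EXOSC9, EXOSC2, EXOSC4, EXOSC8 and EXOSC6. Counting intervals of neighbours overlapped in 2 of 9 pairs in the high c-Myc library (EXOSC9 with EXOSC1, EXOSC8 with EXOSC6). They overlapped in 3 of 9 pairs with c-Myc low (EXOSC3 with EXOSC1, EXOSC7 with EXOSC5, EXOSC2 with EXOSC4).

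Transcript levels of the subunits were more unequal in the high c-Myc library. The highest subunit was 18.7 times the lowest with c-Myc high and 9.75 times with c-Myc low, and the SD of log2(RPKM + 0.5) over the 10 subunits was 1.36 with c-Myc high and 0.88 with c-Myc low. Over all expressed genes that SD was 1.84 with c-Myc high and 1.70 with c-Myc low. With the transcripts of each gene summed, the SD over the subunits was 1.45 with c-Myc high and 1.21 with c-Myc low, a smaller gap. The 2 transcripts of a subunit had similar levels, as for EXOSC10 at 21.6 and 22.0 with c-Myc high. A sum may count their shared reads more than once, so the smaller gap may not describe gene levels. Within the ring alone, the highest level was 18.7 times the lowest with c-Myc high and 3.78 times with c-Myc low. EXOSC5 made up 40.8% of the summed RPKM of the 10 subunits with c-Myc high and 10.2% with c-Myc low, while EXOSC10 made up 5.69% with c-Myc high and 27.0% with c-Myc low. The sum itself was 386 with c-Myc high and 89.0 with c-Myc low. Without EXOSC4 and EXOSC5, which were left out after their values were seen, the SD of the levels was 0.97 with c-Myc high and 0.99 with c-Myc low.

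The synthetic RNAs give a measure of scatter between the 2 libraries, since each was added to both samples by cell number, although the labels do not say whether both received the same mix. For the 46 synthetic RNAs that reached an RPKM of 1 in each library, the log2 ratio of high over low c-Myc had a median of -2.56 and an SD of 0.54. The 16 of them within the range of levels of the subunits had an SD of 0.51 and a range of 1.77. The 10 subunits had an SD of 1.29 and a range of 4.17 in the same ratio, and all expressed genes an SD of 1.14.

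Per cell, with that median taken off, all 10 subunits were past 2-fold on the high c-Myc side and none on the low. The same held for 97.1% of all expressed genes, and 0.0876% were at least 2-fold lower, so the count tells nothing about the subunits in particular. The per-cell median over the subunits was 16.95-fold, against 6.86-fold over all expressed genes. EXOSC10 was 5.38-fold higher per cell and EXOSC1 was 6.45-fold higher, while EXOSC5 was 96.7-fold higher. DIS3 was 5.79-fold higher per cell and DIS3L 9.64-fold. In the column that the authors renormalized to the synthetic RNAs, EXOSC5 stood at 345 with c-Myc high and 4.16 with c-Myc low, and EXOSC10 at 47.6 with c-Myc high and 11.1 with c-Myc low. The log2 ratios from that column, with 0.5 added, were 6.21 for EXOSC5 and 2.05 for EXOSC10, below the 6.60 and 2.43 obtained from the median of the synthetic RNAs.

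Ratios of the subunits ran with the GC content of their transcripts, as they did over all genes. EXOSC4 and EXOSC5, the subunits with the highest ratios, had a GC content of 64.4% and 61.5%, the highest of the 10, while the subunits together had a median of 49.2% and all 9948 expressed genes with a value one of 50.3%. Spearman's rho between GC content and the log2 ratio was 0.76 across the 10 subunits and 0.41 across the 9948 genes, where genes share the library and its preparation and are not independent. After a correction for GC content the log2 ratio was 1.93 for EXOSC4, against 3.08 as deposited, and 3.33 for EXOSC5, against 4.04. EXOSC9, of the lowest GC content at 42.9%, moved to 0.93. The same 7 subunits were at least 2-fold higher after the correction, where 20.3% of all genes were.

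**Figure D3:**
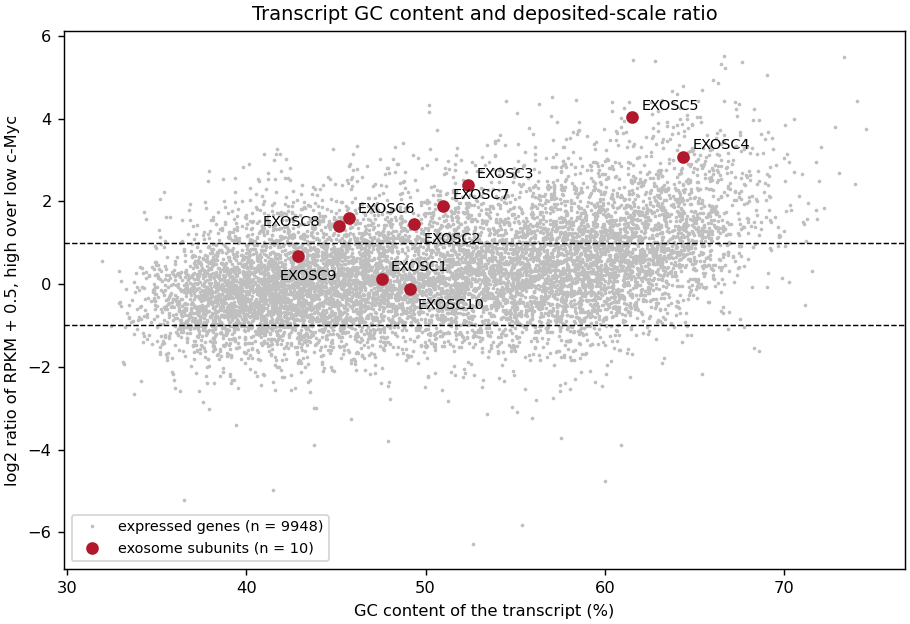
GC content of the transcript in percent against the log2 ratio of RPKM + 0.5, high over low c-Myc, for 9948 expressed genes (grey) and the 10 subunits (red); dashed lines mark 2-fold. EXOSC4 (64.4% GC) and EXOSC5 (61.5% GC) lie at the upper right, and EXOSC1 and EXOSC10 lie low at a GC content near the median of 50.3%.

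The tables do not say whether strand was used in counting, so overlapping genes bear on some subunits. In GENCODE release 29, EXOSC9 shares 142 of its 1481 transcript bases with exons of CCNA2 on the opposite strand. CCNA2, which encodes the S phase and mitosis cyclin A2, stood at an RPKM of 17.5 with c-Myc high and 2.54 with c-Myc low, a log2 ratio of 2.57. EXOSC8 shares 90 of 1198 bases with SUPT20H, listed as FAM48A, which stood at 5.08 with c-Myc high and 8.79 with c-Myc low. EXOSC5 shares 20 of 1118 bases with BCKDHA, a gene of branched-chain amino acid breakdown, which stood at 59.3 with c-Myc high and 28.4 with c-Myc low. EXOSC7 shares 61 of 1055 bases with CLEC3B on the same strand, which stood at 2.18 with c-Myc high and 0.615 with c-Myc low. Overlapping transcripts without a gene name cover 150 of 768 bases (19.5%) of EXOSC3 on the same strand, there classed as protein-coding. On the opposite strand they cover 274 of 887 bases (30.9%) of EXOSC4 and up to 221 of 2721 bases (8.12%) of EXOSC10. The shares of EXOSC4 and EXOSC3 were the largest of the overlaps found. Pseudogenes of EXOSC3 and EXOSC8 exist as well, so reads of both genes may be shared with near-identical copies, and the part of any of these in the ratios was not tested.

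Genes that work with the exosome were called about as often as genes in general. Of 16 nucleases and nuclear cofactors of the exosome, 15 were expressed, of which 4 (26.7%) were at least 2-fold higher and 2 (13.3%) were lower by as much, near the 24.9% and 9.74% of all expressed genes, and the median log2 ratio was 0.48. Only 2 were higher after quantile normalization. UTP18, a nucleolar factor that brings the helicase MTR4 to ribosomal RNA precursors in yeast, stood at an RPKM of 35.1 with c-Myc high and 6.37 with c-Myc low, a log2 ratio of 2.37. GLTSCR2, also called NOP53, which serves the same helicase in yeast, had a log2 ratio of 1.88, or 0.78 with GC content corrected for. ZCCHC7, the zinc finger subunit of the TRAMP complex that tags RNA for the nuclear exosome, stood at 8.60 with c-Myc high and 31.5 with c-Myc low, a log2 ratio of -1.81. C1D, a binding partner of EXOSC10, had a log2 ratio of -1.18, and -0.70 after the GC correction. MTR4 itself, listed as SKIV2L2, stood at 10.1 with c-Myc high and 6.91 with c-Myc low. Of the 4 genes of the SKI complex and its bridge, which feed messengers to the cytoplasmic exosome, WDR61 was higher at a log2 ratio of 1.05 (0.68 at equal RPKM sums). The others were HBS1L at 0.45, SKIV2L at 0.27 and TTC37 at -0.53.

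Other branches of messenger decay had medians nearer to the 0.22 of all expressed genes than to that of the exosome subunits. Of 17 genes of decapping and decay from the 5' end, 5 (29.4%) were higher, 1 (XRN1) was lower and the median log2 ratio was 0.26, all near the values of genes in general. Of the 17, 2 were higher after quantile normalization or at equal RPKM sums. LSM4 and LSM7, subunits of rings that bind RNA ends in decay and in splicing, had log2 ratios of 3.04 and 2.93, while the nuclease XRN1 had -1.26 and the decapping enzyme DCP2 -0.97. Of 13 deadenylation genes, 2 (15.4%) were higher, 3 (23.1%) were lower and the median was -0.11, against 24.9% and 9.74% of all expressed genes. CNOT3 and RQCD1 had log2 ratios of 1.36 and 1.02, both within 2-fold after quantile normalization, against -1.14 for PAN2 and -1.06 for CNOT2, the second of which was at -0.86 after the GC correction. Of 14 genes of nonsense-mediated decay, 2 (14.3%) were higher, none was lower and the median was 0.19, with EIF4A3 at 2.18, UPF1 at 1.54, UPF2 at -0.52 and UPF3B at -0.65. UPF1 was within 2-fold at 0.98 after the GC correction and at 0.95 after quantile normalization.

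RNA processing factors of the nucleolus were nearer to the exosome subunits. Of 10 protein subunits of RNase P and RNase MRP, which cut transfer RNA and ribosomal RNA precursors, 6 (60%) were higher, none was lower and the median log2 ratio was 1.23. POP7 and RPP25 had log2 ratios of 2.61 and 2.01, against 0.63 for RPP14 and 0.01 for RPP30. Of 25 genes listed for ribosome assembly, 24 (96%) were higher, none was lower and the median was 2.33. The list also holds POLR1A at 2.25 and POLR1B at 2.36, which are subunits of RNA polymerase I rather than assembly factors. Of all expressed genes, 24.9% were higher and 9.74% lower. Both lists were chosen with earlier results of these data known, so their shares describe chosen genes only. BOP1 and RRS1, which help to build the large subunit of the ribosome, were at log2 ratios of 4.42 and 4.34, against 1.40 for NOP58 and -0.12 for NOP10. The median of the exosome subunits lay between those of these 2 lists, and EXOSC5 was above all but 2 of the 25 genes of the assembly list as deposited. RRP9, at 4.02, was then just below EXOSC5 at 4.04. It was above EXOSC5 after quantile normalization (3.66 against 3.61) and after the GC correction (3.40 against 3.33). Nearest to the subunits' median among all genes of these lists were UPF1 at 1.54, ZC3H18 at 1.499 and NOP56 at 1.605, a likeness of 1 ratio over 2 libraries. At equal RPKM sums the likeness held, with a subunits' median of 1.16, against 1.16 for UPF1, 1.12 for ZC3H18 and 1.22 for NOP56. Centring takes the same value off every gene and cannot change it. After quantile normalization it did not hold, as the subunits' median was 1.31, against 0.95, 0.86 and 0.97 in the same order. Nor did it hold after the GC correction, where the median was 1.65, against 0.98, 1.11 and 1.40. The differences between lists were not tested.

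**Figure D4:**
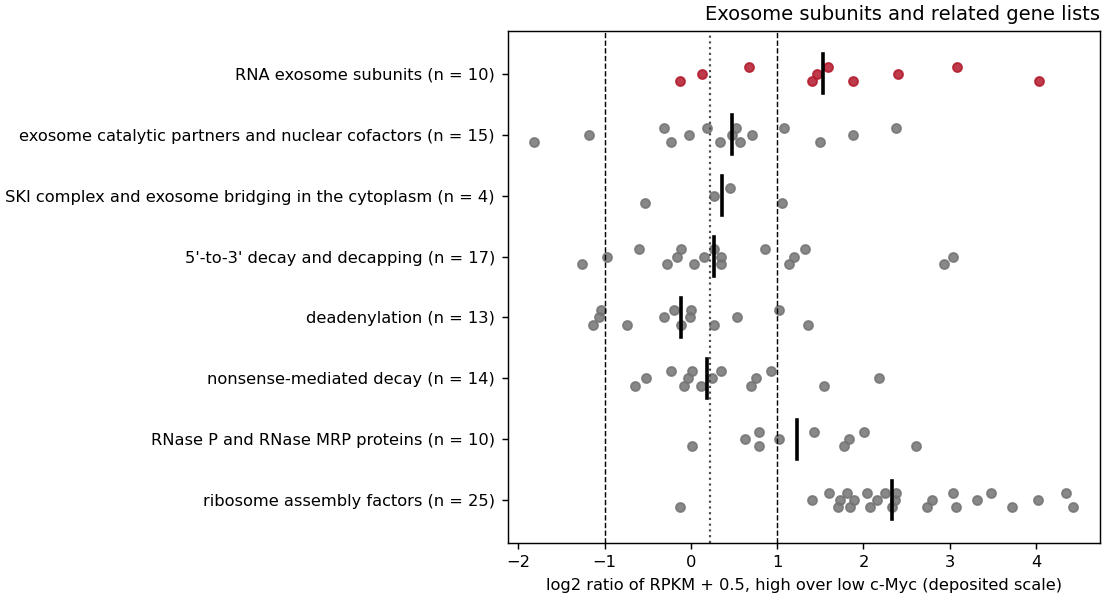
Log2 ratio of RPKM + 0.5, high over low c-Myc, for each expressed gene (points) of the exosome subunits (red) and of 7 related lists (grey), with each list's median as a black bar. Dashed lines mark 2-fold and the dotted line the median of all expressed genes, 0.22; the subunits' median of 1.53 lies between those of RNase P and RNase MRP (1.23) and of ribosome assembly (2.33).

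The same 7 subunits, EXOSC2 to EXOSC8, were at least 2-fold higher in each of the 11 other ways of handling the deposited values. Not all of these could move a ratio. Changes of the low-value filter left every subunit ratio as it was, and summed or lowest rows moved only EXOSC3, EXOSC9 and EXOSC10. Centring, equal sums and quantile normalization remove a shift between the libraries, and they leave all genes more evenly split. Of the genes past 2-fold, 71.8% were higher as deposited, 57.3% after centring, 50.6% after quantile normalization and 48.9% at equal RPKM sums. Their background shares of higher genes were 19.8%, 17.5% and 16.9% in that order. EXOSC5 kept a log2 ratio between 3.33 and 4.11 over all settings and EXOSC3 one between 1.89 and 2.45. EXOSC2 and EXOSC8 came closest to the 2-fold limit, at 1.09 and 1.05 with equal RPKM sums.

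**Figure D5:**
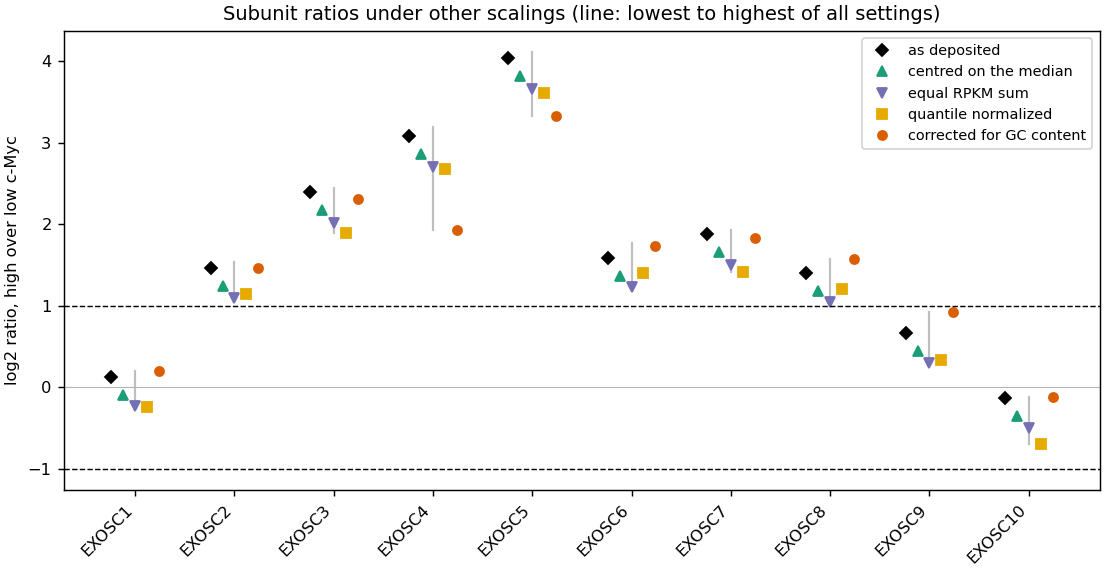
Log2 ratio of high over low c-Myc for each subunit as deposited (black diamonds) and after 4 other scalings (coloured), with a grey line between the lowest and highest value over all settings; dashed lines mark 2-fold. EXOSC2 to EXOSC8 stay above the upper dashed line throughout, while EXOSC1, EXOSC9 and EXOSC10 stay between the dashed lines.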

How the data were processed

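RNA sequencing of 1 high c-Myc and 1 low c-Myc library of P493-6 cells was analysed. Per the labels' protocols, second strands were marked with dUTP and destroyed, and 15 cycles of PCR followed. The submitters' processing notes name Bowtie and hg18; the counting tool, filters and strand setting were not given in the sources used here. The authors deposited, per the file headers, RPKM values and a signal column of spike-in renormalized RPKM, whose method no source used here states.

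From these, each symbol took its row with the highest mean, genes with a mean RPKM of at least 1 were called expressed, and log2 ratios of high over low c-Myc used a pseudocount of 0.5. A log2 ratio at or past 1 or -1 counted as higher or lower, with no p-value, since each group had 1 library. Per-cell ratios subtract the median log2 ratio, without a pseudocount, of the 46 synthetic RNAs that reached an RPKM of 1 in each library. Depth was the number of reads at which RPKM times transcript length most often fell within 0.05 of a whole number for transcripts of up to 20 reads, which held for 46.2% of 2289 transcripts in the high c-Myc library and 49.3% of 3196 in the low one, against 10% by chance. GENCODE release 29 gave transcript lengths and GC content, matched on RefSeq accession; as the authors' own annotation may differ, reads per subunit are approximate. Counting intervals are exact binomial (Clopper-Pearson) at 95% on those reads, hold without the pseudocount and cover counting error only. The GC correction was a lowess fit with a span of 0.3.

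The members and the lists were chosen with earlier results of these data known. Genes named are the 10 subunits, MYC, DIS3 and DIS3L, and the 2 highest and 2 lowest of each related list. The 3 nearest the subunits' median and markers of other cells at an RPKM of at least 1 are named as well. Overlapping genes, SKIV2L2, RRP9, POLR1A and POLR1B were added after their values were seen. The alternatives were 11 for the deposited scale and 8 per cell. The procedure was tested on simulated data. The software was pandas 2.3.3 and numpy 2.4.6 under Python 3.11.15, with scipy 1.17.1 for intervals, statsmodels 0.14.6 for the lowess fit and matplotlib 3.10.9 for plots.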

Additional observations from a re-analysis of the deposited data

How the results depend on the processing

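No paired analysis was possible because each group had 1 library, and for the same reason no library could be left out. The count of 7 higher and 0 lower subunits on the deposited scale was the same under all 11 alternatives. Those that change the low-value filter or the choice of rows left most or all subunit ratios as they were, so they add little to this count. Under the 11 alternatives, 16.9% to 29.2% of all genes tested were higher. The count of 10 higher and 0 lower per cell was the same under all 8 alternatives. There, 89.5% to 97.9% of all expressed genes were higher too, so the per-cell count tells nothing about the subunits in particular. Over those 8 the subunits' median per-cell log2 ratio was between 3.51 and 4.22. The SD of subunit levels was 1.36 with c-Myc high and 0.88 with c-Myc low. Under other pseudocounts and choices of row it was 1.34 to 1.45 with c-Myc high and 0.83 to 1.21 with c-Myc low. The gap was smallest with the transcripts of a gene summed (1.45 with c-Myc high and 1.21 with c-Myc low). Such sums may count shared reads more than once. Of the related lists, 44 of 98 expressed genes (44.9%) were higher and 6 (6.12%) lower as deposited. Over all expressed genes the shares were 24.9% and 9.74%. Of the 44 higher genes, 24 were on the ribosome assembly list and 6 were proteins of RNase P and RNase MRP. In each of the other lists, 14.3% to 29.4% were higher. After the GC correction 3 genes of these lists were lower. Of the 6 lower as deposited, XRN1 has no GC value. C1D moved from -1.18 to -0.70 and CNOT2 from -1.06 to -0.86, both then within 2-fold. Why ratios ran with GC content was not tested. No subunit past 2-fold changed sign under any alternative. At 358 reads or more per subunit, depth limited none of these calls, but 1 library per group leaves the spread between cultures unknown.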

Other observations

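The E-box CACGTG was counted in the promoters of the 7717 expressed genes with an entry in the promoter table, taking 1 promoter per gene. It was present in 14.2% of the 1875 genes past 2-fold on the high c-Myc side, in 9.80% of the 5113 genes within 2-fold and in 8.37% of the 729 genes at least 2-fold lower. The variant CACGCG was present in 23.0%, 18.2% and 12.6% of the same 3 sets. At least 2 copies of CACGTG, as in EXOSC5, were present in 1.71% of the higher genes and 1.15% of those within 2-fold. These shares are descriptions with no test, and base composition was not matched between the sets.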
